A study of Mus musculus with 9 samples.

Results

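The 35 genes described here are the sensors and transcription factors of the unfolded protein response, the chaperones and disulfide isomerases of the endoplasmic reticulum (ER), the genes of ER-associated degradation, a pair of translocation genes and targets of the integrated stress response. They were taken by symbol from tables that list 23440 genes with unique symbols, all 35 were found, and all 35 were among the 10161 genes tested. Their transcripts were measured by RNA sequencing in livers of C57Bl6 mice, a standard inbred strain, in 9 libraries of total RNA. The study's title concerns Cdk4 and hepatic steatosis in ageing.

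Each of the 3 groups held 3 libraries. The young mice were 2 months old and untreated, the aged mice were 20 to 22 months old and untreated, and the treated mice were of the same 20 to 22 months and ate chow with PD-0332991 for 2 weeks. PD-0332991 is palbociclib, an inhibitor of the cyclin-dependent kinases CDK4 and CDK6, here given to the whole animal, and the labels write its amount as 450 mg/k. Treated young mice were not analysed here, so the effect of the drug was measured at the older age alone. The labels give no identifier for the animal behind each library, and where 1 mouse gave several libraries the p-values reflect technical spread only. Liver tissue mixes cell types, and fewer cells of a type and less RNA per cell cannot be told apart in it.

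Secreted and membrane proteins fold in the ER, and hepatocytes, which secrete most plasma proteins, hold much of it. When unfolded proteins build up there, the membrane sensors IRE1 (encoded by Ern1), PERK (Eif2ak3) and ATF6 (Atf6) start the unfolded protein response. IRE1 splices the mRNA of Xbp1. PERK slows translation and thereby raises translation of Atf4 and, further on, the level of the factor CHOP (Ddit3). ATF6 is cut to release a transcription factor. The targets of these sensors include folding factors and the machinery that pulls misfolded proteins out of the ER to be degraded. Gene-level values show neither the splicing of Xbp1 nor the translation of Atf4 nor the cleavage of ATF6.

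The promoters of several of these genes carry the short sequences through which ATF6 and XBP1 are known to act, and they are shown here because the genes are later compared by them. The ER stress response element (ERSE) was searched as CCAAT, 9 bases of any kind and CCACG. ERSE-II was searched as ATTGG, 1 base and CCACG, the element that binds XBP1 best (UPRE) as TGACGTGG, and the C/EBP-ATF element (CARE), bound by ATF4 with partners, as TGATGNAA. Both strands were searched in a window from 250 bases before to 50 bases after the transcription start, in RefSeq promoter sequences of mouse build GRCm38.p6, the patched form of mm10. A window was found for 31 of the 35 genes, and Atf6, Manf, Hyou1 and Derl1 are named only. The matched sites follow, written 5′ to 3′ on the strand of the motif, with the fixed letters in capitals and, in parentheses, the bases from the start, where base 1 is the first transcribed one. The first 10 are ERSE, the next 2 ERSE-II and the last 4 CARE.
Hspa5 (-65 to -47, gene strand): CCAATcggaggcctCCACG
Hsp90b1 (-212 to -194, gene strand): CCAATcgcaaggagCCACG
Hsp90b1 (-107 to -89, opposite strand): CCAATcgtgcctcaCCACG
Calr (-162 to -144, opposite strand): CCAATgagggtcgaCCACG
Canx (-145 to -127, gene strand): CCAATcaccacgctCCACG
Dnajc3 (-105 to -87, gene strand): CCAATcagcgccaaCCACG
Creld2 (-126 to -108, opposite strand): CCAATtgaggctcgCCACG
Pdia6 (-98 to -80, gene strand): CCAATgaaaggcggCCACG
Syvn1 (-44 to -26, gene strand): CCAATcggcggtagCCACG
Derl3 (-156 to -138, opposite strand): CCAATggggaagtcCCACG
Herpud1 (-52 to -42, gene strand): ATTGGgCCACG
Dnajb11 (8 to 18, gene strand): ATTGGcCCACG
Chac1 (-193 to -186, opposite strand): TGATGcAA
Asns (-23 to -16, gene strand): TGATGaAA
Trib3 (15 to 22, opposite strand): TGATGtAA
Herpud1 (-112 to -105, opposite strand): TGATGcAA

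The exact ERSE was in 9 of the 31 members with a window (29.0%), against 37 of 27025 genes of the genome (0.137%). These members thus made up 24.3% of the mouse genes that hold it. Hsp90b1 had 2 copies. ERSE-II was in 6.45% of these members and 0.0444% of all genes, UPRE in 0 of 31 and 0.714%, and CARE in 12.9% and 4.51%. The short ends of ERSE, counted apart and overlapping it, were also frequent: CCAAT was in 77.4% of the members and 41.1% of all genes, and CCACG in 80.6% and 35.5%. The members' upstream bases were richer in G and C, with a median of 62.0% against 52.4%. A match describes these letters and does not show that a factor was bound.

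The 250 bases before the start are printed for the genes whose values the results turn on most: the chaperone Hspa5, the genes Creld2, Syvn1 and Derl3, which spread widely within groups, Herpud1 with a site of each of 2 kinds, and Dnajb9, Chac1 and Atf4, which changed between groups. Capitals mark the sites listed above, and a site on the opposite strand appears as its reverse complement.
Hspa5, chr2:34771840-34772089, plus strand: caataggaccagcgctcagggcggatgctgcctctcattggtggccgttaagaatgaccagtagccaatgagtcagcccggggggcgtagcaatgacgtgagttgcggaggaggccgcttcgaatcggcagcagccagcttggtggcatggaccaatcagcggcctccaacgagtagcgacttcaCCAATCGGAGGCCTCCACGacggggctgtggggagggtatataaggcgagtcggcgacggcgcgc
Creld2, chr15:88819396-88819645, plus strand: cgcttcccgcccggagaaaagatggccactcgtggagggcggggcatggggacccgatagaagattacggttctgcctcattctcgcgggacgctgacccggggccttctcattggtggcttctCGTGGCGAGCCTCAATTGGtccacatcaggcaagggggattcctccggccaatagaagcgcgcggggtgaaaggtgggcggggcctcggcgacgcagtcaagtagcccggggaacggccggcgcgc
Syvn1, chr19:6046326-6046575, plus strand: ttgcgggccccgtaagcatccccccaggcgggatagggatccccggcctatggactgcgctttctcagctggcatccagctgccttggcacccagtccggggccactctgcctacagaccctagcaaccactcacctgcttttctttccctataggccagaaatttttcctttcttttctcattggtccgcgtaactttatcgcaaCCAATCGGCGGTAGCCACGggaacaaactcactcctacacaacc
Derl3, chr10:75893148-75893397, plus strand: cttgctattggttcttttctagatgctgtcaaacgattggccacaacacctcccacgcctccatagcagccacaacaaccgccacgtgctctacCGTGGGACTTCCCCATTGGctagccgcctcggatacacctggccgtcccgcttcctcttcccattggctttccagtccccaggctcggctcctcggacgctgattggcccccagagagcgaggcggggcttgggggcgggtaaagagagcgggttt
Herpud1, chr8:94386179-94386428, plus strand: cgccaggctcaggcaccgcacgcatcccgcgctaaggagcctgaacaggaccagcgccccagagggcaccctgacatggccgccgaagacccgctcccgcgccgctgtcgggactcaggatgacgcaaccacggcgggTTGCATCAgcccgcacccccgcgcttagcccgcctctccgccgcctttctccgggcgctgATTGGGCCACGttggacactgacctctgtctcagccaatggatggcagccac
Dnajb9, chr12:44210069-44210318, minus strand: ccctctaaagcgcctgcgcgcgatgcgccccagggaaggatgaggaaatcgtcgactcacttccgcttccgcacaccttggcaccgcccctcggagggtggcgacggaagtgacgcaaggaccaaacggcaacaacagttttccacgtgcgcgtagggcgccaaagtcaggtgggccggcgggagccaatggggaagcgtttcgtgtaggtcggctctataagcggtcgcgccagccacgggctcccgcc
Chac1, chr2:119350992-119351241, plus strand: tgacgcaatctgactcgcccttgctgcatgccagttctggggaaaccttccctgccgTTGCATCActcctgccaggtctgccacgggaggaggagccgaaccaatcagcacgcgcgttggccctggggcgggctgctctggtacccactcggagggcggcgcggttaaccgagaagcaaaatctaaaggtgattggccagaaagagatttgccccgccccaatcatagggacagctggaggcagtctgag
Atf4, chr15:80254934-80255183, plus strand: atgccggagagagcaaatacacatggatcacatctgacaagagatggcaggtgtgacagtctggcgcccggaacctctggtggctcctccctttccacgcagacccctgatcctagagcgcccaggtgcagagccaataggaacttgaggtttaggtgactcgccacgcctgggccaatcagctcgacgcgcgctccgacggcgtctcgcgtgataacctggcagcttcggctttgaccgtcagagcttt
Dnajb9 and Atf4 held none of the 4 elements in their windows, and Chac1 held CARE alone.

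**Figure D1:**
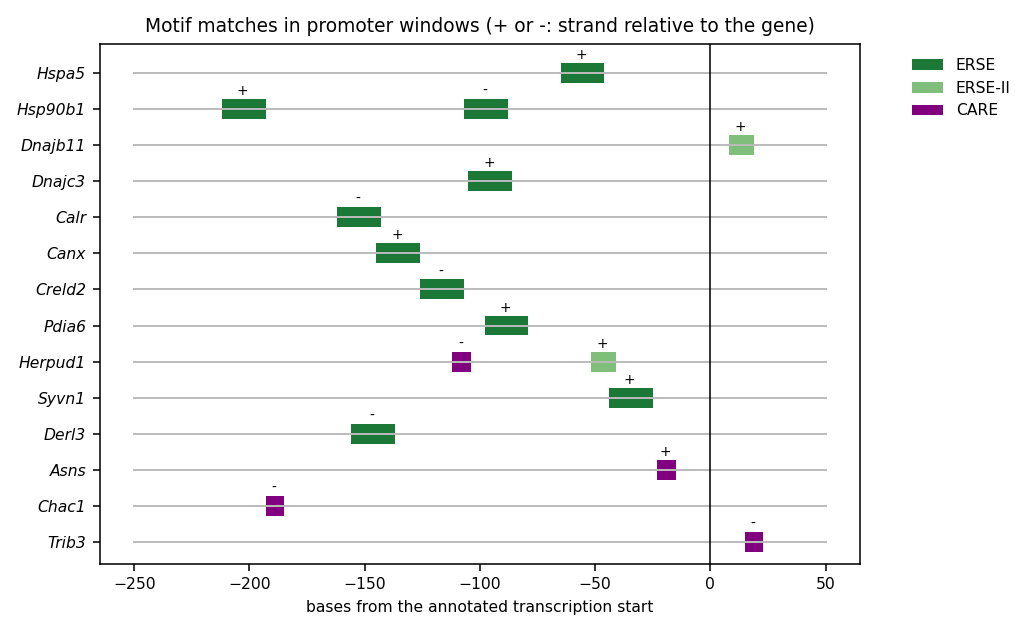
Positions of ERSE, ERSE-II and CARE (UPRE had no match) relative to the transcription start (x axis, bases) in the member genes that hold one (y axis). The sites lie from 212 bases before the start (Hsp90b1) to 22 bases after it (Trib3), and the ERSE copies are all upstream.

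The values are TPM (a relative transcript abundance scaled to the library's total) that correct for transcript length, so levels of different genes can be set side by side. Tests were made with limma on log2(TPM + 0.5), and a gene was called when its adjusted p over the 10161 genes was below 0.05. Fold changes and standard errors (SE) are on that log2 scale, which understates changes of low genes. TPM keeps no sequencing depth, so the precision of each value is known only from the spread between libraries. The listed genes took 53.1% to 57.7% of the TPM scale in each library, and the hepatocyte gene Alb was listed at 0 in all 9 libraries, while the other 10 hepatocyte markers found gave a summed level of 30053 to 35096 TPM.

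One library in each older group stood apart in these genes. Among the 14 chaperones and isomerases, all 14 were highest in replicate 1 of the aged group and all 14 in replicate 2 of the treated group, where 23.4% and 29.5% of all genes tested were highest in those libraries of their groups. Replicate 1 of the young group was highest for 11 of the 14, against 33.7% of all genes. Of the 35 genes, 21 (60.0%) reached their highest value of all 9 libraries in treated replicate 2, where 7.80% of all genes did. Acute-phase transcripts, which the liver makes in inflammation, were also highest in aged replicate 1 and treated replicate 2 of their groups, but in young replicate 2 among the young: the summed level of 22 such genes was 14672, 21612 and 14946 TPM in the young, 44443, 21067 and 16833 TPM in the aged and 34733, 46307 and 33570 TPM in the treated libraries. Saa1, serum amyloid A, ran from 123 to 6008 TPM within the aged group. The clock gene Dbp read 0.645, 0.576 and 14.3 TPM in the aged libraries and 6.99, 27.7 and 21.9 TPM in the treated ones. The part of inflammation, time of day or any library in the results below was not tested beyond leaving libraries out.

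Markers of other cells were measured beside them. Plasma cells have an enlarged ER, and the summed level of 11 B and plasma cell markers was 74.2 to 77.3 TPM in young, 75.6 to 113 TPM in aged and 61.4 to 83.0 TPM in treated libraries, with 0 of the 4 markers tested called by limma in any comparison (1, 0 and 1 at an unadjusted p under 0.05). Of 11 exocrine pancreas markers, 8 (Cela3b, Prss2, Pnlip, Cpa1, Amy2a5, Try4, Cel and Clps) were listed at 0 in every library. Since Alb is at 0 too, a 0 in these tables can be a failed estimate, and these zeros do not show that the cells were absent. The summed level of 9 neutrophil markers was 2.96 to 3.89 TPM in young, 9.45 to 26.0 TPM in aged and 24.6 to 34.9 TPM in treated libraries, and 3 of the 3 tested were called higher in treated than in young livers. Of 11 macrophage markers, 5 were called lower in treated than in young livers, with sums of 145 to 214 TPM in young, 141 to 197 TPM in aged and 136 to 143 TPM in treated libraries. Stellate cell markers gave sums of 82.1 to 94.4 TPM in young, 60.2 to 82.0 TPM in aged and 57.7 to 78.0 TPM in treated libraries. Of the 10, 2 were called lower with age (Col3a1 and Sparc; median log2 fold change of the list -0.53, 10 of 10 below 0) and 3 in treated against young livers (Col3a1, Sparc and Col1a2; median -0.34). Of single markers of other cells, the endothelial Lyve1 was called lower and the cholangiocyte Sox9 higher with age, and the hepatocyte Ttr lower in treated than in young livers. Summed cholangiocyte markers were 21.7 to 25.1, 15.7 to 27.1 and 12.1 to 17.7 TPM and erythroid ones 310 to 338, 269 to 706 and 206 to 327 TPM in young, aged and treated libraries, with 0 of 3 and 0 of 5 called by limma against aged livers (2 and 3 at an unadjusted p under 0.05). Of all genes, 14.99%, 18.2% and 24.8% had an unadjusted p under 0.05 for age, treated against aged and treated against young. With age 0.65% of all genes were called higher and 0.453% lower, and in treated against young livers 2.59% and 4.29%. The part of the cells marked by these lists in the results was not tested.

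Between aged and young livers, 1 of the 35 genes was called: Dnajb9, a co-chaperone of BiP, was higher with age. Over all genes, 1.1% were called in this comparison. With the aged libraries all above the young ones stood 5 of the 35 genes (Dnajb9, Ddit3, Eif2ak3, Edem1 and Ppp1r15a), where 8.82% of all genes did so, and Chac1 and Derl2 (5.71%) lay wholly below, where 9.57% of all genes did. Counted in either direction, 20.0% of the members and 18.4% of all genes had groups without overlap. The 5 became 8 without aged replicate 3 and 9 without young replicate 1, against 18.2% and 12.4% of all genes. Leaving out a library can only keep or raise such a count, here and below. The median log2 fold change of the 35 was 0.08, against -0.01 for all genes, with 19 genes above 0 and 16 below. With 1 library left out the median ran from -0.03 (without aged replicate 1) to 0.18 (without aged replicate 2). No member was called without young replicate 1, 2 or 3 or without aged replicate 1 or 2. Without aged replicate 3, 5 were called (Dnajb9, Ddit3, Xbp1 and Eif2ak3 higher, Creb3l3 lower), and calls over all genes rose from 112 to 696. The age calls given below for single genes in that fit come with this rise.

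Between treated and aged livers, 2 of the 35 genes were called: Chac1, a glutathione-degrading enzyme, was higher and Atf4 was lower with PD-0332991. Over all genes 1.45% were called, 62 higher and 85 lower, a split that became 109 and 56 with median-of-ratios scaling and 88 and 56 with quantile normalization. Treated libraries lay wholly above aged ones for 7 of the 35 (Hsp90b1, Chac1, Pdia3, Calr, Derl1, Derl2 and Creb3l3), against 5.72% of all genes. They lay wholly below for 1 (Atf4, 2.86%), against 16.7% of all genes, and in either direction for 22.9% of the members and 22.4% of all genes. Without aged replicate 1 the number wholly above was 22 of 35 (62.9%), against 9.03% of all genes. That library was the highest of the aged ones for 22 of the 35 genes, against 23.4% of all genes. Leaving it out thus favoured a rise among the members. Without both aged replicate 1 and treated replicate 2 the number wholly above was 23 of 35 (65.7%), against 12.2%. Without aged replicate 3 it was 11 (31.4%), against 11.4%, and without treated replicate 2 alone it was again 7. The median log2 fold change of the 35 genes was 0.39, against -0.09 for all genes, with 27 above 0. In the same comparison the median was 0.45 for 11 cytosolic heat shock genes and 0.44 for the 22 acute-phase genes, with 11 and 22 above 0. With 1 library left out, the log2 fold change of Chac1 stayed at 1.51 to 1.80 and that of Atf4 at -0.53 to -0.43. The number of calls changed with the library and with the smaller fit. Without aged replicate 1, 8 members were called (Chac1, Hsp90b1, Pdia3, Calr, Dnajb11, Herpud1 and Sdf2l1 higher, Atf4 lower). Without aged replicate 3, 4 were called (Chac1, Trib3 and Creb3l3 higher, Atf4 lower). Calls over all genes rose too, from 147 to 240 without aged replicate 1 and to 392 without aged replicate 3. The calls given below for single genes in these 2 fits come with that rise. Members called were 1 each without aged replicate 2, treated replicate 1 or treated replicate 3. They were 0 without treated replicate 2 or without both aged replicate 1 and treated replicate 2.

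Between treated and young livers, which differ in age and drug together, 5 of the 35 genes were called: Dnajb9, Edem1, Eif2ak3 and Manf were higher and Atf4 was lower. Over all genes 6.88% were called, 263 higher and 436 lower, a split that became 359 and 250 with median-of-ratios scaling and 308 and 310 with quantile normalization. Treated libraries lay wholly above young ones for 19 of the 35 genes (54.3%), against 9.55% of all genes, and wholly below for Atf4 and Ern1 (5.71%), against 24.4% of all genes. In either direction the groups did not overlap for 60.0% of the members and 33.9% of all genes. The number wholly above was 21 of 35 (60.0%) without treated replicate 2, against 12.6% of all genes. The median log2 fold change was 0.56, against -0.10 for all genes, with 31 of 35 above 0. Treated libraries also lay wholly above young ones for 10 of 11 cytosolic heat shock genes and 22 of 22 acute-phase genes, with medians of 0.99 and 1.03. With 1 library left out, the log2 fold changes of the 5 called genes kept their direction while fewer were called, with 0 members called without young replicate 1 or 2, 1 (Dnajb9) without young replicate 3 or treated replicate 2 or 3, and 2 (Dnajb9 and Edem1) without treated replicate 1. The comparisons share libraries, the aged ones between the first and the second and the others with this one, so their values are given side by side and were not set against each other as separate evidence.

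**Figure D2:**
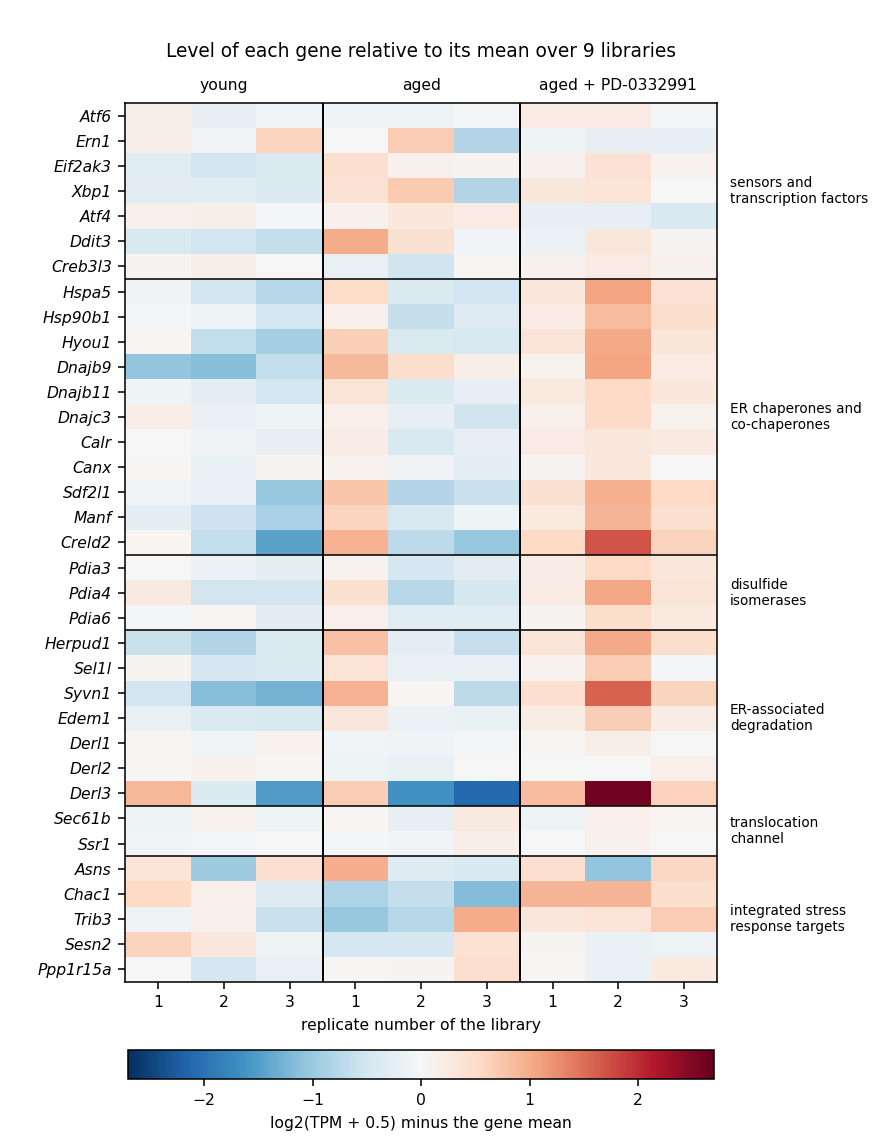
Heatmap of the 35 genes (y axis, grouped by role) in the 9 libraries (x axis), with colour for log2(TPM + 0.5) minus the gene's mean over the libraries. Aged replicate 1 and treated replicate 2 stand out in their groups for the chaperones, the isomerases and most degradation genes, while Atf4 is lowest in the 3 treated libraries.

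**Figure D3:**
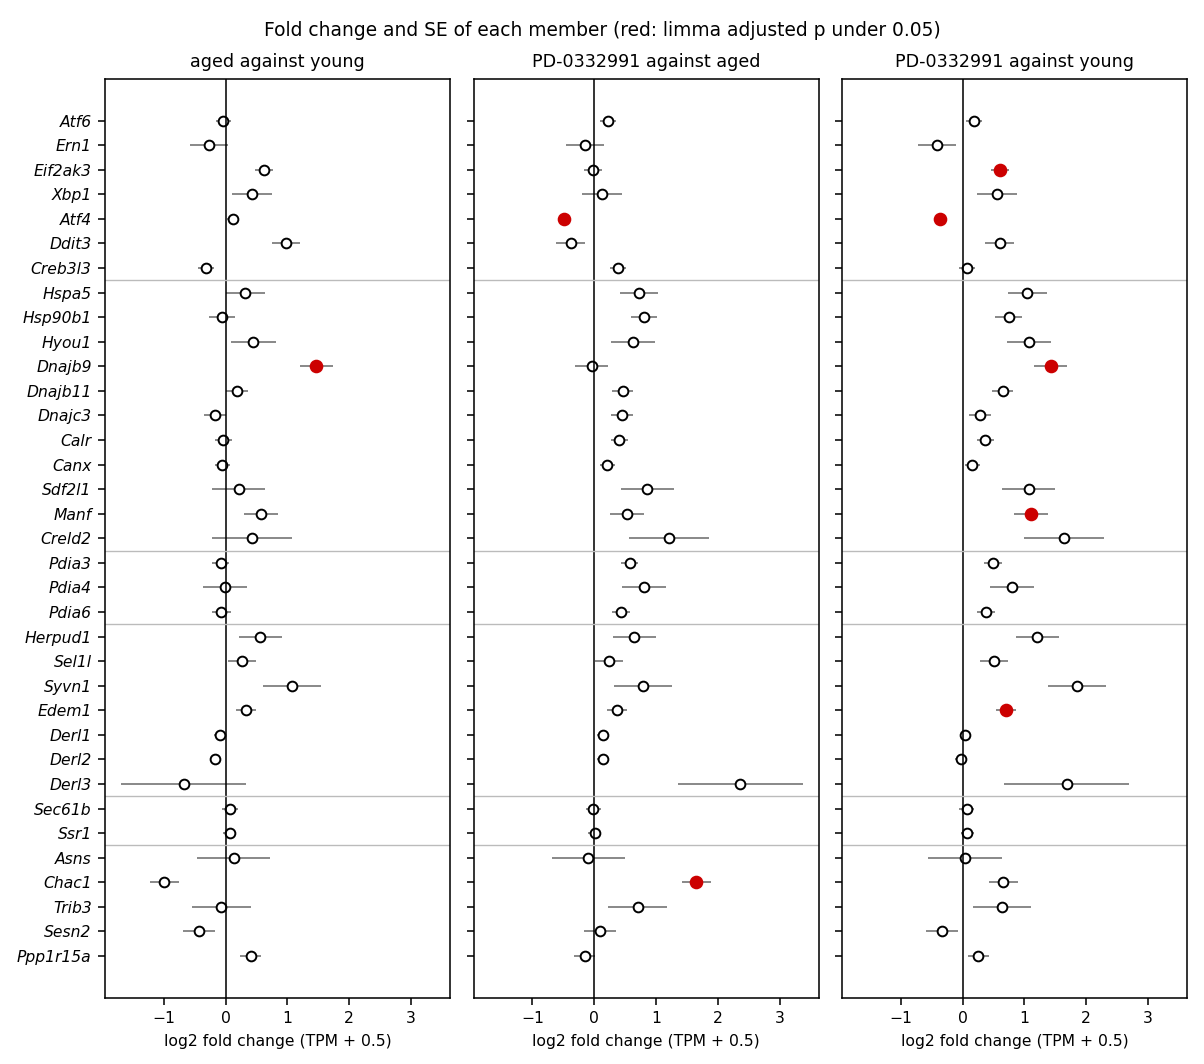
Log2 fold change of each of the 35 genes (points) with its standard error (bars) in the 3 comparisons (panels), with called genes in red. The called genes are Dnajb9 in the comparison of aged with young, Chac1 and Atf4 in that of treated with aged, and Dnajb9, Edem1, Eif2ak3, Manf and Atf4 in that of treated with young.

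The chaperones were the most abundant of these genes. The summed level of the 11 chaperones and co-chaperones and 3 disulfide isomerases was 2370, 2012 and 1720 TPM in the young libraries, 3091, 1771 and 1875 TPM in the aged and 2880, 4255 and 3111 TPM in the treated ones. Every treated library thus lay above every young library, while aged replicate 1 lay within the treated range and the other aged libraries within the young range. Against aged livers limma called 0 of these 14 genes, with 5 of the chaperones and 3 of the isomerases at an unadjusted p under 0.05. Of all genes, 18.2% were under it there. Against young livers 2 of the 14 were called (Dnajb9 and Manf, both higher), where 6.88% of all genes were called and 2.59% called higher.

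Hspa5 encodes BiP, the ER member of the HSP70 family and the chaperone that holds the sensors inactive. It read 487, 366 and 302 TPM in young, 732, 393 and 363 TPM in aged and 640, 1083 and 679 TPM in treated libraries. Aged replicate 1 lay among the treated values, and the other aged libraries lay within the young range. The log2 fold change was 0.72 ± 0.31 (SE) for treated against aged (limma adjusted p = 0.268) and 1.04 ± 0.31 for treated against young (limma adjusted p = 0.0833), and neither was called.

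Hsp90b1, the HSP90 paralogue of the ER, read 395, 371 and 295 TPM in young, 452, 262 and 322 TPM in aged and 480, 746 and 571 TPM in treated libraries. All 3 treated libraries were above the 6 others. Its log2 fold change against aged livers was 0.81 ± 0.21 (SE), not called (limma adjusted p = 0.0969), and it was called without aged replicate 1 (1.02, limma adjusted p = 0.03). Its exons overlap 415 bases of the pseudogene 1810014B01Rik on the opposite strand, and it is not stated whether the counting used strand. Calr, the calcium-binding lectin calreticulin, read 350 to 536 TPM over the 6 untreated libraries and 544, 574 and 555 TPM in the treated ones, again with no overlap. The difference was small, 0.40 ± 0.14 (SE) on the log2 scale against aged livers, and not called (limma adjusted p = 0.16). Its membrane-bound relative calnexin (Canx) had log2 fold changes of -0.06 to 0.21 over the 3 comparisons, with overlapping groups in each.

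Dnajb9, or ERdj4, a J-domain co-chaperone that also keeps IRE1 inactive, was the member whose age difference was called. It read 9.11, 8.59 and 12.2 TPM in young, 36.8, 27.6 and 21.9 TPM in aged and 21.1, 41.6 and 23.2 TPM in treated libraries. The treated range covered the aged one, and both lay wholly above the young range. The group means were 9.98 ± 1.97, 28.8 ± 7.51 and 28.6 ± 11.3 TPM (SD, n = 3 each). Dnajb9 rose with age by 1.47 ± 0.27 (SE) on the log2 scale (limma adjusted p = 0.0399), and the call was lost in 5 of the 6 fits that left out 1 library, with limma adjusted p of 0.0632 to 0.17 without young replicate 1, 2 or 3 or aged replicate 1 or 2. The log2 fold change was 1.28 to 1.64 over the 6 fits. Treated livers were higher than young ones by 1.42 ± 0.27 (limma adjusted p = 0.0163), a call lost without young replicate 1 (0.0694) or 2 (0.0567), with log2 fold changes of 1.13 to 1.61 over the 6 fits. Treated and aged livers differed by -0.04 ± 0.27.

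The other J-domain co-chaperones of BiP were higher in level and less variable between the groups. Dnajb11 (ERdj3) read 44.5 to 56.9 TPM in young, 47.1 to 78.3 TPM in aged and 74.5 to 90.7 TPM in treated libraries, with treated above young in all 3 libraries and aged replicate 1 within the treated range. Against young livers its difference of 0.65 ± 0.17 (SE) narrowly missed the threshold (limma adjusted p = 0.0505), and it was called with a pseudocount of 1, with the 5 TPM filter and with median-of-ratios scaling. Dnajc3 (p58IPK), which also restrains PERK, read 37.0 to 76.8 TPM over the 9 libraries, and its groups overlapped in every comparison.

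The other ER luminal factors that accompany BiP in the stress response had wider spreads. Manf, a luminal protein that is secreted in stress, read 96.8, 77.4 and 61.8 TPM in young, 171, 84.7 and 106 TPM in aged and 137, 215 and 156 TPM in treated libraries. It was higher in treated than in young livers by 1.10 ± 0.27 (SE; limma adjusted p = 0.0475), but was called in none of the 6 fits without 1 library (adjusted p 0.0612 to 0.15), where the log2 fold change was 0.91 to 1.26. Manf shares 146 exonic bases with Dcaf1 on the opposite strand. Creld2, an ER protein with isomerase activity, read 105, 63.0 and 36.7 TPM in young, 193, 61.3 and 49.5 TPM in aged and 146, 329 and 155 TPM in treated libraries, so its highest aged value was 3.91 times its lowest. With such spread its log2 fold change of 1.22 ± 0.65 (SE) against aged livers was not called (limma adjusted p = 0.373). Sdf2l1, a partner of ERdj3, and Hyou1, the exchange factor of BiP, read 34.4 to 66.9 and 35.3 to 68.5 TPM in young, 40.7 to 119 and 49.0 to 104 TPM in aged, and 94.6 to 138 and 83.4 to 136 TPM in treated libraries. Treated libraries were wholly above young ones for both, with log2 fold changes of 1.07 ± 0.43 and 1.07 ± 0.36 (SE) that were not called.

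The disulfide isomerases form and reshuffle disulfide bonds in folding proteins. Pdia3, which works with calreticulin and calnexin, read 184, 167 and 155 TPM in young, 197, 136 and 150 TPM in aged and 213, 270 and 230 TPM in treated libraries. The treated libraries exceeded the 6 others, and its log2 fold change against aged livers was 0.57 ± 0.14 (SE; limma adjusted p = 0.0715). It was called without aged replicate 1 (0.73, limma adjusted p = 0.0266). Pdia6 had 0.44 ± 0.15 and Pdia4 0.81 ± 0.35 in the same comparison, neither called, and for both aged replicate 1 lay within the treated range. With age all 3 had log2 fold changes between -0.08 and -0.01.

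**Figure D4:**
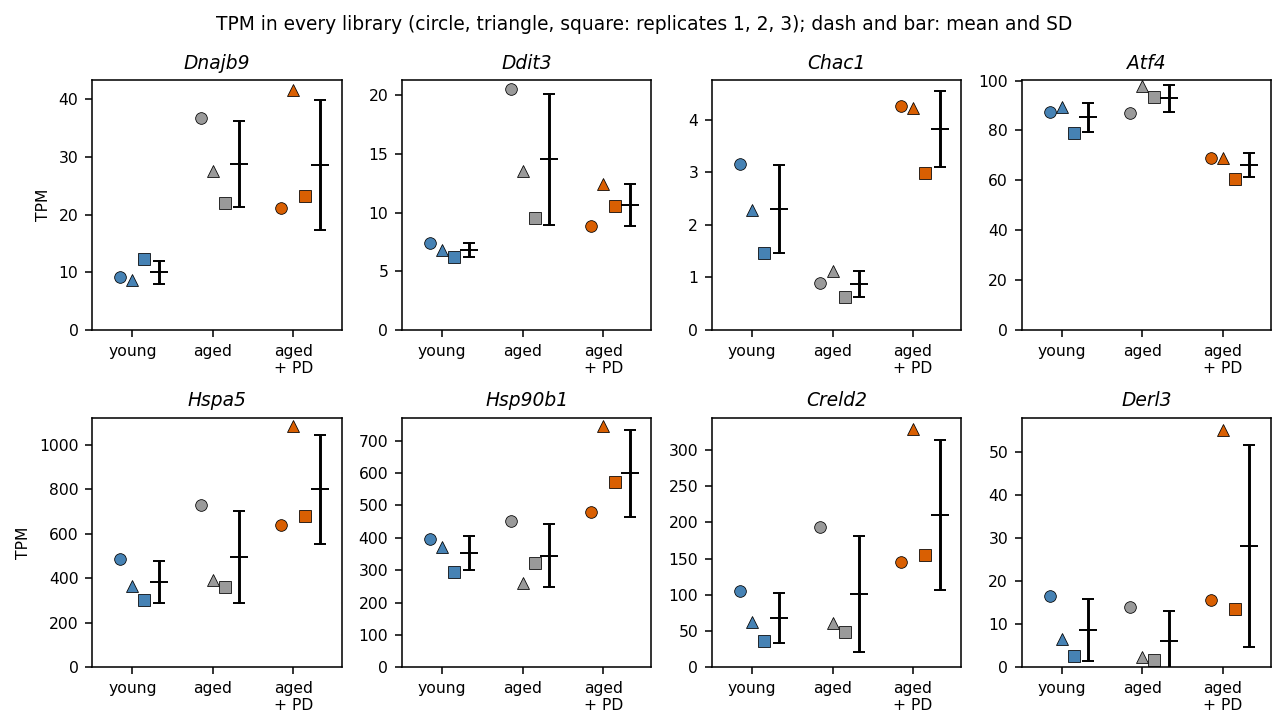
TPM in each library (points) of 8 members by group (x axis), with the group mean and SD (n = 3 libraries; the lower bar ends at 0 for aged Derl3). Dnajb9 is higher in both older groups, Chac1 is lowest in the aged group, Atf4 is lowest in the treated group, and Hspa5, Hsp90b1, Creld2 and Derl3 have their highest value in treated replicate 2.

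ER-associated degradation carries misfolded proteins to the proteasome. The summed level of its 7 members was 308, 256 and 288 TPM in young, 587, 337 and 278 TPM in aged and 470, 786 and 496 TPM in treated libraries. All 7 had log2 fold changes above 0 in treated against aged livers, with a median of 0.37 against -0.09 for all genes. In this comparison limma called 0 of the 7, with 1 at an unadjusted p under 0.05, where 18.2% of all genes were. Against young livers 1 was called, where 6.88% of all genes were, and the median was 0.69 against -0.10 for all genes.

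Edem1, a lectin that picks out misfolded glycoproteins, was that gene. It read 27.7, 24.7 and 23.5 TPM in young, 40.0, 28.5 and 28.1 TPM in aged and 37.0, 50.9 and 36.9 TPM in treated libraries, in both older groups wholly above young. Edem1 was higher in treated than in young livers by 0.69 ± 0.16 (SE; limma adjusted p = 0.029), a call kept without treated replicate 1 and lost in the 5 other fits without 1 library (adjusted p 0.0544 to 0.109), with log2 fold changes of 0.54 to 0.77 over all 6. Syvn1 (HRD1), the ubiquitin ligase of the pathway, read 48.4, 30.8 and 28.0 TPM in young, 132, 71.5 and 41.9 TPM in aged and 94.4, 207 and 104 TPM in treated libraries. Its treated mean was 3.79 times its young mean, a difference of 1.86 ± 0.47 (SE) on the log2 scale that was not called (limma adjusted p = 0.0594), and the aged libraries spanned 3.15-fold. Herpud1, a membrane scaffold of the HRD1 complex, read 113, 99.6 and 135 TPM in young, 300.2, 144 and 112 TPM in aged and 220, 354 and 239 TPM in treated libraries. Here aged replicate 1 lay within the treated range, and the difference of treated from aged livers was 0.65 ± 0.35 (SE) on the log2 scale with that library (limma adjusted p = 0.36) and 1.06 without it (limma adjusted p = 0.0366). Sel1l, the adaptor of HRD1, had log2 fold changes of 0.24 to 0.50 over the 3 comparisons, with overlap in each.

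The derlins, membrane proteins of the retrotranslocation channel, differed among themselves. Derl3 had the widest spread within groups of all members, with 16.6, 6.58 and 2.64 TPM in young, 14.1, 2.46 and 1.63 TPM in aged and 15.7, 55.3 and 13.5 TPM in treated libraries. The highest and lowest libraries of a group differed 6.27-fold in young, 8.66-fold in aged and 4.10-fold in treated livers. Its log2 fold change of 2.37 ± 1.01 (SE) for treated against aged livers was the largest of the 35 and was not called (limma adjusted p = 0.286). Derl1 and Derl2 stayed within 43.4 to 51.9 and 28.7 to 35.6 TPM over the 9 libraries. Treated libraries lay just above aged ones for both, by 0.14 ± 0.09 each, and neither was called. Derl2 shares 231 exonic bases with Mis12 on the opposite strand.

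**Figure D5:**
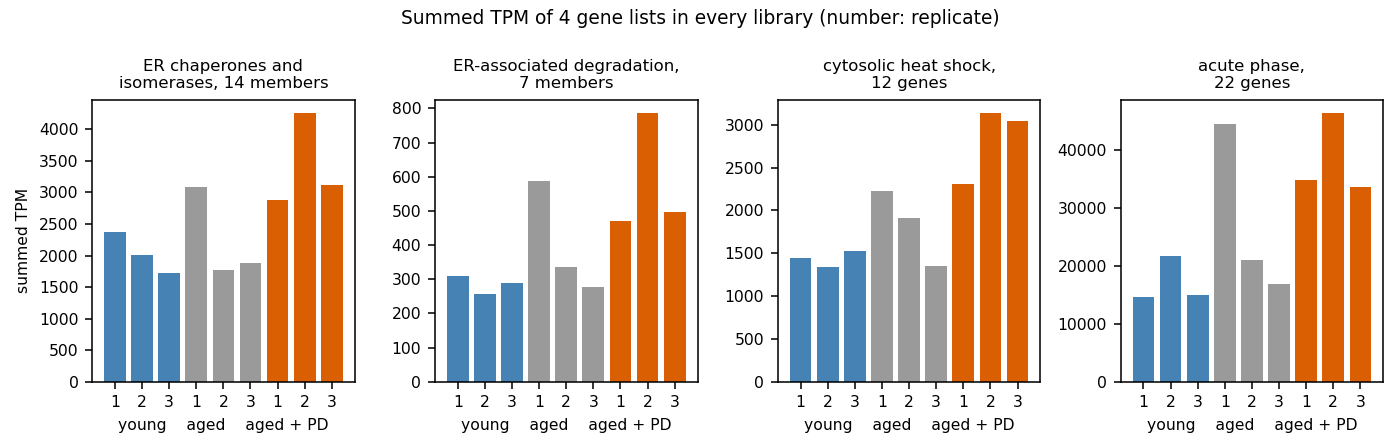
Summed TPM per library (bars) of the 14 ER chaperones and isomerases, the 7 degradation genes, 12 cytosolic heat shock genes and 22 acute-phase genes in the 3 groups. In the ER, degradation and acute-phase panels, aged replicate 1 lies at the level of the treated libraries and treated replicate 2 is the highest of the 9.

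Among the sensors and transcription factors, Eif2ak3 and Atf4 were called. Eif2ak3, the kinase PERK, was low, at 2.04, 1.75 and 1.92 TPM in young, 3.76, 2.97 and 2.86 TPM in aged and 2.92, 3.64 and 2.89 TPM in treated libraries. Both older groups lay wholly above the young one. It was higher in treated than in young livers by 0.60 ± 0.15 (SE; limma adjusted p = 0.0354), which no fit without 1 library called (adjusted p 0.0642 to 0.141), with log2 fold changes of 0.50 to 0.65 in those fits. The age difference of 0.61 ± 0.15 was not called (limma adjusted p = 0.0771) but was without aged replicate 3 (0.0281). Eif2ak3 shares 485 exonic bases with Gm43292 on the opposite strand.

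Atf4, the factor whose translation PERK raises, read 87.6, 89.4 and 78.8 TPM in young, 87.2, 98.0 and 93.4 TPM in aged and 68.8, 68.8 and 60.4 TPM in treated libraries. The 3 treated libraries were the lowest of the 9, and the young and aged ranges overlapped. The means were 85.3 ± 5.69, 92.8 ± 5.41 and 66.0 ± 4.84 TPM (SD, n = 3 each). Atf4 fell with PD-0332991 by 0.49 ± 0.10 (SE) on the log2 scale against aged livers (limma adjusted p = 0.0336), and the call was lost with median-of-ratios scaling (-0.39, adjusted p = 0.0773). It was also lost without aged replicate 2 (0.118), treated replicate 1 (0.0681), 2 (0.0971) or 3 (0.138). No filter on low values, a fit of 2 groups only and a fit with replicate number as a block lost this call too. Against young livers Atf4 was lower, with a log2 fold change of -0.37 ± 0.10 (SE) and a limma adjusted p of 0.0453, and no fit without 1 library (0.0696 to 0.148, log2 fold changes of -0.42 to -0.30) and no fit with median-of-ratios scaling (-0.26, 0.149) called it. Nor was it called there with no filter, with quantile normalization or with replicate number as a block.

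Ddit3, the factor CHOP, read 7.37, 6.82 and 6.24 TPM in young, 20.6, 13.6 and 9.55 TPM in aged and 8.88, 12.4 and 10.6 TPM in treated libraries. Every older library was above the young ones, and the treated values lay within or just below the aged range. The age difference of 0.98 ± 0.23 (SE) was not called (limma adjusted p = 0.0749) and was called without aged replicate 3 (1.24, limma adjusted p = 0.00324). Ddit3 shares 68 exonic bases with Mars on the opposite strand. Xbp1 was nearly constant in young livers at 125, 126 and 120 TPM and spread in aged ones over 204, 252 and 89.9 TPM, with 193, 202 and 155 TPM in treated ones. Its sensor Ern1 followed a like order in the aged libraries, at 5.03, 8.39 and 2.73 TPM, against 4.60, 4.30 and 4.24 TPM in treated ones. For both, aged replicate 3 was the lowest of all 9 libraries, and limma called neither gene in any comparison, with 0 at an unadjusted p under 0.05. Without aged replicate 3, Xbp1 was called higher with age (0.87, limma adjusted p = 0.00348).

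Atf6 stayed within 6.72 to 9.28 TPM with overlap throughout. Creb3l3 encodes CREBH, a liver-enriched relative of ATF6 that acts on lipid and acute-phase genes. It read 124, 133 and 116 TPM in young, 102, 81.1 and 121 TPM in aged and 128, 137 and 128 TPM in treated libraries. The treated libraries were wholly above the aged ones, by 0.39 ± 0.13 (SE) on the log2 scale (limma adjusted p = 0.153), and it was called without aged replicate 3 (0.53, limma adjusted p = 0.0287). Of 15 genes listed as its targets, 2 were called higher in treated than in aged livers and 0 lower, where 0.61% of all genes were called higher and 0.837% lower. They were Ppara, the lipid-sensing receptor, by 0.88 ± 0.13 (SE, limma adjusted p = 0.0158) and Apoa5, an apolipoprotein of triglyceride transport, by 0.68 ± 0.14 (limma adjusted p = 0.0415). Ppara read 21.3, 19.5 and 19.7 TPM in young, 9.83, 9.83 and 13.8 TPM in aged and 20.0, 22.4 and 19.8 TPM in treated libraries. It was also called lower with age, at -0.84 ± 0.13 on the log2 scale (limma adjusted p = 0.0144), where Apoc2 was called higher. In treated against young livers 3 of the 15 were called higher (Crp, Apoc2 and Hamp) and 0 lower, where 2.59% of all genes were called higher.

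Targets of the integrated stress response, which is the part of the response that runs through Atf4, did not move as 1 group. Chac1 degrades glutathione and is induced through ATF4 and CHOP. It read 3.15, 2.28 and 1.47 TPM in young, 0.902, 1.12 and 0.618 TPM in aged and 4.27, 4.24 and 2.99 TPM in treated libraries. The 3 aged libraries were the lowest of the 9, and the treated ones overlapped the young ones only at the lower end. Chac1 rose with PD-0332991 by 1.65 ± 0.23 (SE) on the log2 scale against aged livers (limma adjusted p = 0.0156), with means of 3.83 ± 0.728 and 0.879 ± 0.251 TPM (SD, n = 3 each). The call was lost without treated replicate 2 (1.58, limma adjusted p = 0.0716) and without both that library and aged replicate 1 (1.60, 0.0833). With age its difference was -0.99 ± 0.23 (limma adjusted p = 0.0731), not called, and -0.99 with an adjusted p of 0.041 in the limma fit with replicate number as a block. Atf4 and Chac1 were thus called in opposite directions in the comparison of treated with aged livers.

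Trib3, a pseudokinase induced by CHOP, read 1.03, 1.32 and 5.70 TPM in the aged libraries and 3.30, 3.48 and 4.45 TPM in the treated ones. Aged replicate 3 was its highest of all 9 libraries, and without it Trib3 was called higher with treatment (1.33, limma adjusted p = 0.00638), against 0.70 ± 0.47 (SE; limma adjusted p = 0.468) with it. Ppp1r15a (GADD34), which reverses the translation block, read 3.36 to 4.71 TPM in young and 4.91 to 6.67 TPM in aged libraries, a difference of 0.41 ± 0.17 (SE) that was not called (limma adjusted p = 0.29). Asns, asparagine synthetase, ran from 1.35 to 7.11 TPM, and Sesn2, a stress-induced inhibitor of mTORC1 signalling, from 0.641 to 1.90 TPM, both with overlap in each comparison. The translocation genes Sec61b and Ssr1 stayed at 143 to 197 and 9.18 to 10.9 TPM, with log2 fold changes of at most 0.08 in size.

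Genes of the same pathways outside the 35 were counted from picked lists of other known members, which are not complete. Over all genes, 1.1%, 1.45% and 6.88% were called in aged against young, treated against aged and treated against young livers. Of 23 other regulators tested, 1 was called: Creb3l2, a membrane-bound relative of ATF6, was higher in aged than in young livers by 1.10 ± 0.21 (SE; limma adjusted p = 0.0334) and in treated than in young ones by 1.21 ± 0.21 (limma adjusted p = 0.00894). It read 1.53, 1.12 and 1.35 TPM in young, 3.98, 3.9997 and 2.48 TPM in aged and 3.83, 4.73 and 2.86 TPM in treated libraries. Of 29 other folding enzymes, 1 was called: the prolyl isomerase Fkbp11 fell with age by 0.89 ± 0.14 (SE; limma adjusted p = 0.0162), from 36.3, 35.3 and 32.2 TPM to 20.5, 16.0 and 19.1 TPM. Their median log2 fold change in treated against aged livers was 0.07, against 0.53 for the 11 chaperones among the 35 and 0.57 for the 3 isomerases.

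Among 25 other degradation genes, Selk (0.44 ± 0.09, limma adjusted p = 0.0489) was called higher in treated than in aged livers and Ubxn4 (0.50 ± 0.11, limma adjusted p = 0.0226) in treated than in young ones. Sec11c, a signal peptidase subunit, was the 1 of 28 translocation and glycosylation genes called, higher in treated than in young livers by 0.49 ± 0.10 (SE; limma adjusted p = 0.019). Of 21 ER export genes, limma called 0 in each comparison. In aged against young, treated against aged and treated against young livers, 1, 3 and 3 were at an unadjusted p under 0.05. Of all genes, 14.99%, 18.2% and 24.8% were under it in the same order.

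Among 24 other genes of the integrated stress response, 2 were called higher and 0 lower in treated than in aged livers. Over all genes, 0.61% were called higher and 0.837% lower there. The amino acid transporter Slc38a2 read 24.6, 20.0 and 25.5 TPM in young, 11.9, 12.2 and 17.3 TPM in aged and 25.2, 28.1 and 26.2 TPM in treated libraries. Slc38a2 fell with age by 0.75 ± 0.15 (SE; limma adjusted p = 0.0399) and was higher with treatment by 0.94 ± 0.15 (limma adjusted p = 0.0161). The transcription factor Cebpb was higher in treated than in aged livers by 0.96 ± 0.14 (limma adjusted p = 0.0156), at 156, 133 and 187 TPM against 84.0, 71.0 and 88.6 TPM. Gdf15, a secreted stress factor, was higher in treated than in young livers by 1.65 ± 0.31 (limma adjusted p = 0.0155), and Ndrg1 was lower, at -1.10 ± 0.18 on the log2 scale (limma adjusted p = 0.00864). Cth, which makes cysteine, rose with age by 0.74 ± 0.13 (limma adjusted p = 0.0278).

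Set side by side by the promoter letters shown above, the 11 members with ERSE or ERSE-II had a median log2 fold change of 0.65 in treated against aged livers, with 11 of 11 above 0. The 20 members with a window and neither element had 0.11, with 12 above 0. In aged against young livers the medians were -0.04 and 0.10, and in treated against young livers 0.75 and 0.50. Outside the members, 6 tested genes held ERSE (Acacb, Acnat2, Alg12, Hnrnpa3, Pan2 and Xlr3a), and their medians were 0.04 for aged against young, 0.24 for treated against aged and 0.56 for treated against young livers. All these values come from the same libraries, and the difference between the classes was not tested.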

How the data were processed

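Liver RNA was measured in 9 libraries, 3 per group. Per the labels' protocols, libraries were paired-end and made with an Illumina TruSeq RNA kit. Per the submitters' processing notes, kallisto and build mm10 were used. Not given in the sources used here were the kallisto version, transcript annotation, strand setting and depth. Deposited by the authors was, for each library, a table of TPM values with 23444 rows, of which 4 with repeated symbols were left out.

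The members and all lists were chosen with earlier results of these data known. Genes with at least 1 TPM in at least 3 libraries (10161) were tested on log2(TPM + 0.5) with limma 3.58.1 in R 4.3.3, with trend and robust empirical Bayes and all 9 libraries in 1 fit. P-values were adjusted by the Benjamini-Hochberg method over all genes tested. For 3 libraries against 3, an exact permutation test of 1 gene cannot go below p = 0.1 (two-sided), so none is given. The script was tested on simulated data. No 2 libraries held identical values.

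All 35 members were described, and up to 4 called genes by smallest adjusted p from each other list, plus Saa1 and Dbp as level checks. Alternatives were other pseudocounts, filters and scalings, a fit without robust estimation, 2 groups only, a replicate block and leaving out each library. Leaving out aged replicate 1 and treated replicate 2 together, and the counts without overlap for each library left out, were chosen after seeing the data. Promoter sequences are from RefSeq, build GRCm38.p6. Exon overlaps come from GENCODE.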

Additional observations from a re-analysis of the deposited data

How the results depend on the processing

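The number of members called in aged against young livers was 1 and became 0 with no filter on low values or with quantile normalization, and 0 to 5 when 1 library was left out. In treated against aged livers it was 2 and became 1 with no filter, with the 5 TPM filter (which removes Chac1), with median-of-ratios scaling or with 2 groups only, 0 to 8 when 1 library was left out, and 0 without aged replicate 1 and treated replicate 2. In treated against young livers it was 5 and became 1 with no filter (Dnajb9), 3 with quantile normalization (Dnajb9, Eif2ak3 and Edem1), 14 with 2 groups only and 0 to 2 when 1 library was left out. Over all genes the calls in aged against young livers were 112, and 62 with no filter, 49 with 2 groups only and 16 to 696 with 1 library left out. In treated against aged livers they were 147, and 29 with no filter, 25 with 2 groups only, 7 to 392 with 1 library left out and 35 without aged replicate 1 and treated replicate 2. In treated against young livers they were 699, and 1282 with 2 groups only and 153 to 475 with 1 library left out. A fit without 1 library has fewer libraries, and otherwise the cause of these changes was not tested.

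With the replicate number as a block, members called were 1 (Chac1 in place of Dnajb9), 1 and 2 in the 3 comparisons in the same order, and all genes called were 91, 60 and 492. Same-numbered libraries correlated at -0.11, -0.22 and -0.16 in aged against young, at -0.10, 0.06 and 0.17 in treated against aged and at 0.13, 0.07 and 0.08 in treated against young livers after group means were removed, so by the rule used here (every pair above 0.1) the numbers were not taken to pair the libraries. The labels do not say what a number shares. In the last comparison each library correlated best with its own number, a hint from the data and not from the design.

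Of 1595 values of single genes under an alternative, 1513 kept their direction or had no call in either setting, 54 lost a call, 28 gained one and 0 called values changed sign. In 58 the sign differed with no call in either setting. Over the alternatives run, the median log2 fold change of the 35 genes was -0.03 to 0.18 in aged against young, 0.29 to 0.49 in treated against aged and 0.43 to 0.66 in treated against young livers. TPM keeps no depth, so low genes such as Chac1, Sesn2 and Trib3 have an unknown counting error.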

Other observations

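Cytosolic heat shock genes, whose products fold proteins outside the ER, were measured beside the ER chaperones. The summed level of 12 such genes was 1446, 1343 and 1521 TPM in young, 2225, 1913 and 1347 TPM in aged and 2302, 3133 and 3047 TPM in treated libraries. In treated against young livers 7 of the 11 tested were called higher and 0 lower, where 2.59% of all genes were called higher. Hspb1, a small heat shock protein, was higher by 1.98 ± 0.30 (SE; limma adjusted p = 0.00937), at 116, 184 and 232 TPM against 50.8, 37.6 and 41.0 TPM. Hspa8, the constitutive HSP70 of the cytosol, was higher by 1.21 ± 0.24 (limma adjusted p = 0.0185). In treated against aged livers limma called 0 of the 11, with 6 at an unadjusted p under 0.05, where 18.2% of all genes were.

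Genes of feeding and the clock also differed between the treated and the aged livers. Angptl4, a fasting-induced inhibitor of lipoprotein lipase, was higher in treated livers by 1.63 ± 0.18 (SE; limma adjusted p = 0.00961), at 130, 106 and 127 TPM against 42.1, 31.6 and 43.1 TPM. Cpt1a, which carries fatty acids into mitochondria, was higher by 0.62 ± 0.09 (limma adjusted p = 0.0158). Of the clock genes, Cry1 was lower, at -1.23 ± 0.22 on the log2 scale (limma adjusted p = 0.0215) and Per1 higher by 0.99 ± 0.21 (limma adjusted p = 0.0424). The labels used here give no feeding state or hour of collection, and the part of either in the ER genes was not tested.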
